A study of Homo sapiens with 6 samples.

Results

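Interferon-induced genes are the genes a cell switches on after it meets interferon, and they were followed here in 3 human myeloma cell lines with and without extra miR-10a. The set held 41 listed genes, matched by symbol to the platform's gene annotation. That annotation named 32 of the 41, out of 14884 genes named on the array, and each of the 32 was read by 1 probe set. The other 9, IFI16, STAT2, PARP9, PARP14, OAS1, OAS2, OAS3, MX1 and IFI6, were not analysed here. An expression filter, a mean of at least 4.70 log2 units over the 6 arrays, left 7442 genes for testing. Of the named members 23 passed it, and DDX60, HERC6, IFIT1, IFIT2, MX2, RSAD2, TRIM22, IFI44 and IFI44L did not.

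Type I interferons bind a receptor pair at the cell surface, and the kinases JAK1 and TYK2 are then activated. A complex that includes STAT2 and IRF9 enters the nucleus and binds the interferon-stimulated response element, or ISRE, in front of its target genes, while interferon gamma acts largely through a different element called GAS. The targets include sensors of viral RNA, the transcription factors of the pathway itself, effectors that block viral entry, translation or release, and inhibitors such as USP18 that switch the response off.

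Expression was measured on Affymetrix whole-transcript arrays in RPMI8226, KMS11 and U266, established lines of malignant plasma cells. Each line was transfected with HiPerFect reagent carrying 100 nM of miR-10a mimic or of a scrambled negative control, and RNA was taken 48 h later. With 1 array per line and treatment, 3 mimic arrays stood against 3 control arrays. All 6 cultures had thus been transfected with a small RNA, and no untransfected or interferon-treated array was analysed here. Separate cultures within a line are not named in the labels, so every error below is a spread between lines or between the differently treated arrays of a line. Whether a lower value comes from fewer expressing cells or from less RNA per cell cannot be told apart in bulk RNA.

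The median of each array was 3.61 to 3.66 log2 units. Across tested genes the correlation was 0.992 to 0.993 within a line and 0.715 to 0.779 between lines. Of the 8 named plasma cell markers 6 passed the filter and 2 did not. SLAMF7 passed it only through U266, with a mean of 3.46 over the other lines, and CD38 only through RPMI8226. Here and below, passing only through 1 line means that the mean over the other lines lay below the filter. The plasma cell transcription factor IRF4 read 10.26 to 10.89 in the 6 arrays and XBP1, the factor of the secretory programme, 9.34 to 9.65. SDC1, the plasma cell surface marker CD138, was at 5.52 to 5.72 in KMS11, 7.16 to 7.30 in RPMI8226 and 9.48 to 9.49 in U266, and CD38 was at 9.90 to 9.99 in RPMI8226 against 3.80 to 4.92 in the other lines. The 8 named markers of B, T, myeloid and stromal cells lay between 1.98 and 4.87.

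The agent is shown first, followed by the promoter element that many of these genes share. The mature strand of miR-10a that gives the microRNA its name is printed below, with the seed (bases 2 to 8) in capitals, from the RefSeq entry of MIR10A (GRCh38.p14, minus strand, chr17:48579904-48579926). The labels do not give the strand or sequence of the mimic.
hsa-miR-10a-5p: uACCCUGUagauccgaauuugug

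Promoter windows from RefSeq (GRCh38.p14), 250 bases before to 50 after each gene's start, existed for 25 of the 32 named members. They were searched on both strands for the ISRE core GAAANNGAAA, whose copies can overlap, and for the GAS motif TTCNNNGAA. The ISRE core was in 18 of the 25 windows (72%), against 4.38% of the 27305 genes with a window and 3.89% of the 10749 of these named on the array. The GAS motif was in 7 of the 25 (28%), against 9.38% and 8.79%. A match describes letters in a window and is not evidence of binding. The windows below surround the motif, in capitals, upstream of the start of 6 members that share it but not all the same order across the lines. ISG15, IFIT1, IFIT3, IFI44L and BST2 were highest in U266. ISG15, IFIT1, IFIT3 and SAMD9 were lowest in RPMI8226, and BST2 was lowest in KMS11. The 30 bases printed for IFI44L occur at 2 places in its window. A motif on the opposite strand reads as its reverse complement, and each line is written in the direction of its gene.
ISG15 (chr1:1013380-1013409, plus strand): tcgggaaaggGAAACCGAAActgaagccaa
IFIT1 (chr10:89392497-89392526, plus strand): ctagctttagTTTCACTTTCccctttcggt
IFIT3 (chr10:89332425-89332454, plus strand): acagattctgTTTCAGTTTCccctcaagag
IFI44L (chr1:78620365-78620394, plus strand): tcctagtgagGAAAAAGAAAgttagtggca
BST2 (chr19:17405741-17405770, minus strand): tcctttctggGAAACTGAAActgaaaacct
SAMD9 (chr7:93118096-93118125, minus strand): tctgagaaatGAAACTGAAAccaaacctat

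The first question was where these genes stood in each line. Most of the named members had their highest values in U266 and their lowest in RPMI8226. Both U266 arrays lay above all 4 other arrays for 20 of the 32 named members, against 19% of all named genes, and both RPMI8226 arrays lay below all others for 20 of 32, against 19.1%. RPMI8226 stood highest in this sense for 3 members (20% of named genes), KMS11 for 4 (20.3%). KMS11 stood lowest for 3 (15.4%) and U266 for 3 (20%). Ordered by line means, 18 of the 32 ran U266, KMS11, RPMI8226 from high to low, against 16.2% of named genes. The range between the highest and lowest line mean had a median of 1.5 log2 units over the named members and 0.46 over all named genes. Among genes that passed the filter, the median range was 1.31 over the members and 0.77 over all tested genes.

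Among the 23 members tested, 21 differed between lines (limma F test, adjusted p under 0.05), but so did 82.4% of tested genes, so the count is close to the background. U266 exceeded RPMI8226 for 17 members and was lower for 4, against 35.1% and 32.4% of tested genes. KMS11 exceeded RPMI8226 for 12 and was lower for 2 (background 35.6% and 29.4%). U266 exceeded KMS11 for 10 and was lower for 4 (background 29.8% and 34%). These counts include IFIT3 and IFITM2, which passed the filter only through the line where they were highest; without them 19 of 21 differed between lines. The 2 members without a call across lines were the RNA sensor IFIH1, between 7.7 and 8.0 in the 6 arrays, and the exonuclease gene ISG20, between 4.69 and 5.19.

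**Figure D1:**
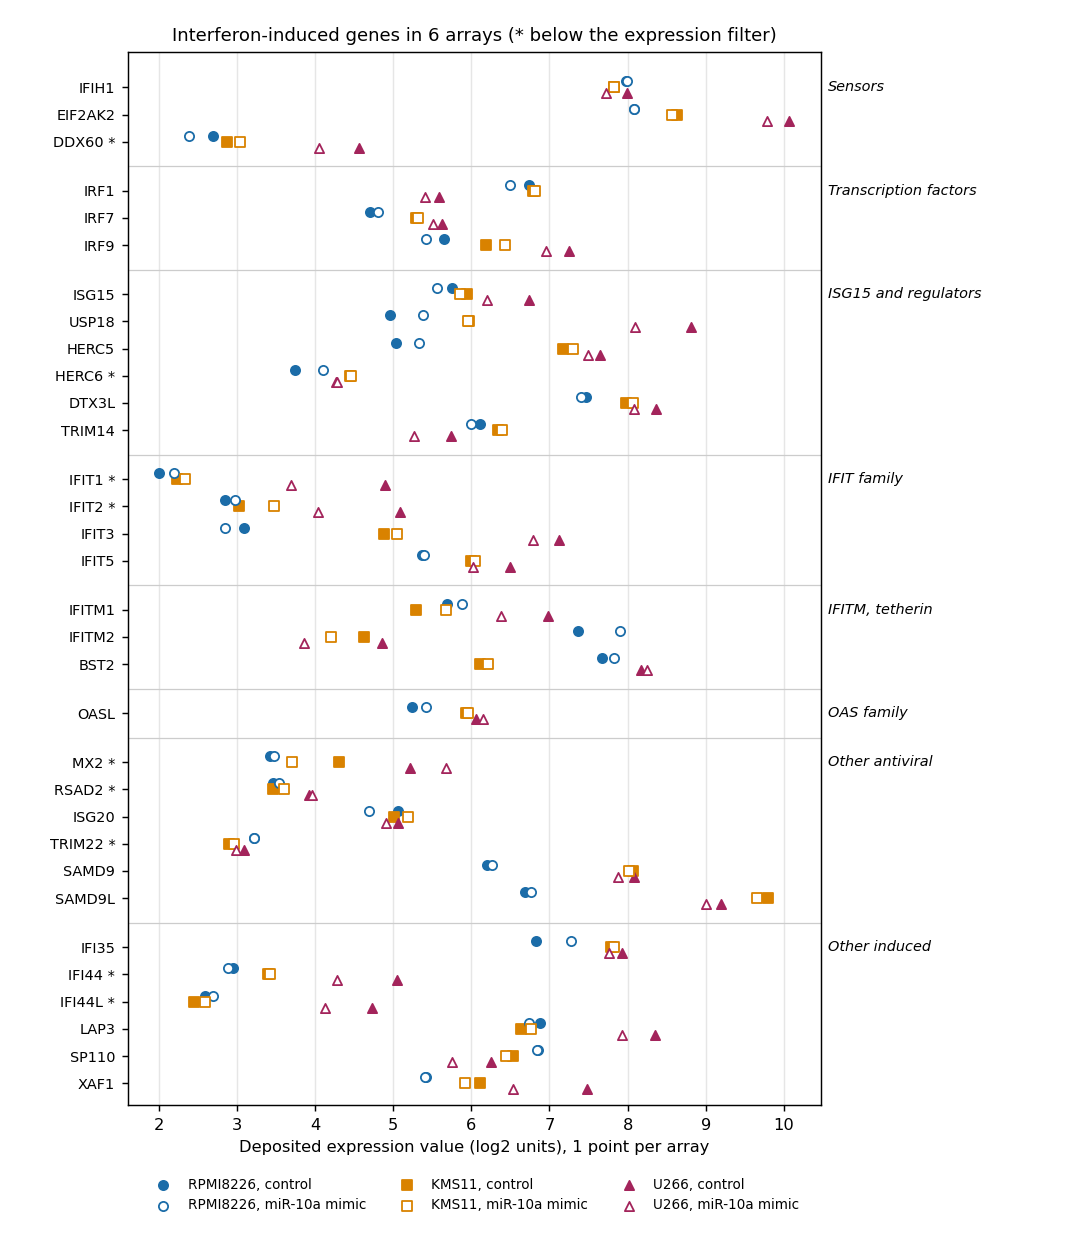
Deposited log2 expression value (horizontal axis) of the 32 named interferon-induced genes, grouped by role, with 1 point per array: circles for RPMI8226, squares for KMS11, triangles for U266, filled for control and open for mimic. Both triangles lie to the right of all other points for 20 of the 32 genes, while IRF1, TRIM14 and SP110 have both triangles on the left.

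Of the sensors, EIF2AK2 encodes the kinase PKR, which halts translation when it binds double-stranded RNA. In log2 units, and with the control array given first and the mimic array second here and below, it read 8.08 and 8.09 in RPMI8226, 8.63 and 8.57 in KMS11, and 10.07 and 9.78 in U266. The lines did not overlap, and U266 stood 1.84 ± 0.10 (SE) above RPMI8226 and 1.32 ± 0.10 above KMS11 (limma, adjusted p = 2.98e-05 and 0.000125). DDX60, a helicase that assists RNA sensing, was below the filter and is named because of its values: it read 2.38 to 3.04 in RPMI8226 and KMS11 and 4.57 and 4.05 in U266.

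The 3 transcription factors did not share an order. IRF9, the DNA-binding partner of STAT2, read 5.64 and 5.42 in RPMI8226, 6.19 and 6.43 in KMS11, and 7.25 and 6.95 in U266. It rose in steps across the lines, by 0.78 ± 0.14 from RPMI8226 to KMS11 (limma, adjusted p = 0.00419) and by 0.80 ± 0.14 from KMS11 to U266 (0.00387). IRF7, which amplifies interferon production, read 4.70 and 4.80 in RPMI8226, 5.29 and 5.32 in KMS11, and 5.62 and 5.52 in U266. Its arrays fell in the same order, but the step from KMS11 to U266 was 0.26 ± 0.09 (limma, adjusted p = 0.0428, and 0.07 with array medians centred). IRF1, a factor that interferon gamma induces strongly, went the other way with 6.74 and 6.49 in RPMI8226, 6.78 and 6.82 in KMS11, and 5.58 and 5.40 in U266. U266 was lowest for IRF1, 1.31 ± 0.10 under KMS11 (limma, adjusted p = 0.000126), while KMS11 and RPMI8226 differed by 0.19 ± 0.10 (0.148).

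In the ISG15 system the steps between lines differed from gene to gene. ISG15 encodes a ubiquitin-like protein that is attached to other proteins, and it read 5.75 and 5.56 in RPMI8226, 5.94 and 5.86 in KMS11, and 6.74 and 6.20 in U266. U266 stood 0.57 ± 0.13 above KMS11 (limma, adjusted p = 0.00894), and the step between KMS11 and RPMI8226 was 0.25 ± 0.13 (0.134). USP18, the enzyme that removes ISG15 and also shuts down the type I receptor, read 4.95 and 5.38 in RPMI8226, 5.97 and 5.95 in KMS11, and 8.81 and 8.09 in U266. Both U266 arrays lay more than 2 log2 units above the next line, and the U266 mean was 9.76 times that of RPMI8226 (difference 3.29 ± 0.25, limma, adjusted p = 0.000105). USP18 has a near-identical copy, USP41, so its probe set may read both. HERC5, the ligase that attaches ISG15, read 5.03 and 5.33 in RPMI8226 against 7.18 and 7.29 in KMS11 and 7.65 and 7.49 in U266. Here the gap lay below KMS11: KMS11 exceeded RPMI8226 by 2.05 ± 0.12 (limma, adjusted p = 5.1e-05), and U266 exceeded KMS11 by 0.33 ± 0.12 (0.0557).

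DTX3L, a ubiquitin ligase that works with PARP9, read 7.47 and 7.40 in RPMI8226, 7.98 and 8.07 in KMS11, and 8.36 and 8.09 in U266. U266 and KMS11 were not separated by the test (0.20 ± 0.11, limma, adjusted p = 0.167). TRIM14, an adaptor of antiviral signalling, was the regulator that was lowest in U266, with 6.11 and 6.0 in RPMI8226, 6.34 and 6.39 in KMS11, and 5.74 and 5.26 in U266. It was 0.86 ± 0.14 lower in U266 than in KMS11 (limma, adjusted p = 0.00236). HERC6, below the filter, lay between 3.74 and 4.46.

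The IFIT proteins bind foreign or unmodified RNA and block its translation. IFIT3 had the widest range of any tested member, 3.09 and 2.84 in RPMI8226, 4.88 and 5.04 in KMS11, and 7.12 and 6.79 in U266. The lines did not overlap. IFIT3 passed the filter only through U266, its mean over the other lines being 3.96, so no test of its difference is given, and the distance of its RPMI8226 values to background is unknown. IFIT5 read 5.36 and 5.40 in RPMI8226, 5.99 and 6.04 in KMS11, and 6.49 and 6.02 in U266, so its U266 mimic array lay within the KMS11 pair. IFIT1 and IFIT2 did not pass the filter and are named because of their values. IFIT1 read 2.01 to 2.33 in RPMI8226 and KMS11 and 4.89 and 3.69 in U266, and IFIT2 read 2.84 to 3.47 and then 5.09 and 4.04. Both IFIT1 and IFIT2 thus stood apart in U266, from low values elsewhere whose distance to background is unknown.

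The membrane proteins that restrict virus entry and release did not all share an order. IFITM1 blocks fusion of viruses at the cell membrane and read 5.68 and 5.88 in RPMI8226, 5.29 and 5.68 in KMS11, and 6.99 and 6.38 in U266. U266 stood highest for IFITM1, 1.20 ± 0.23 above KMS11 (limma, adjusted p = 0.00514). Both KMS11 arrays lay below all others, but KMS11 minus RPMI8226 was -0.30 ± 0.23 (0.301). IFITM2, which acts in endosomes, read 7.36 and 7.90 in RPMI8226, 4.62 and 4.21 in KMS11, and 4.86 and 3.85 in U266. Its RPMI8226 arrays lay above all others by more than 2 log2 units, and the KMS11 and U266 arrays overlapped. IFITM2 passed the filter only through RPMI8226, its mean over the other lines being 4.39, so no test of that difference is given. IFITM1, IFITM2 and IFITM3 are near-identical in parts, so the split of signal between their probe sets is uncertain. BST2, or tetherin, which holds budding virus at the cell surface, read 7.67 and 7.82 in RPMI8226, 6.11 and 6.22 in KMS11, and 8.17 and 8.24 in U266. KMS11 was lowest for BST2, 2.05 ± 0.08 under U266 (limma, adjusted p = 1.19e-05). U266 was highest, 0.46 ± 0.08 above RPMI8226 (limma, adjusted p = 0.00297), the same order of line means as for IFITM1.

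Among the remaining antiviral effectors, OASL, which binds RNA and aids RIG-I signalling, read 5.24 and 5.42 in RPMI8226, 5.93 and 5.96 in KMS11, and 6.06 and 6.14 in U266. The KMS11 and U266 values of OASL differed by 0.16 ± 0.08 (limma, adjusted p = 0.148). SAMD9 and SAMD9L, neighbouring genes whose products restrict poxviruses and slow cell growth, were both lowest in RPMI8226. SAMD9 read 6.20 and 6.26 in RPMI8226, 8.07 and 8.02 in KMS11, and 8.08 and 7.87 in U266, with the last 2 lines overlapping. SAMD9L read 6.69 and 6.76 in RPMI8226, 9.80 and 9.65 in KMS11, and 9.20 and 9.01 in U266. KMS11 was the highest line for SAMD9L, by 3.0 ± 0.10 over RPMI8226 and 0.62 ± 0.10 over U266 (limma, adjusted p = 6.19e-06 and 0.00212). MX2, a nuclear-pore-associated inhibitor of retroviruses, was below the filter and is named because of its values, 3.42 and 3.48 in RPMI8226, 4.31 and 3.71 in KMS11, and 5.21 and 5.67 in U266. RSAD2, which makes an antiviral nucleotide, and TRIM22 stayed between 2.89 and 3.96 in all arrays.

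Other induced genes showed 3 patterns. U266 stood highest for LAP3, an aminopeptidase, and XAF1, which opposes the apoptosis inhibitor XIAP. LAP3 read 6.88 and 6.74 in RPMI8226, 6.64 and 6.76 in KMS11, and 8.35 and 7.92 in U266, a gap to KMS11 of 1.44 ± 0.14 (limma, adjusted p = 0.000318). XAF1 read 5.42 and 5.40 in RPMI8226, 6.11 and 5.92 in KMS11, and 7.49 and 6.53 in U266. The 3 lines did not overlap for XAF1, although the step from RPMI8226 to KMS11 did not pass the test (0.60 ± 0.22, limma, adjusted p = 0.0535). IFI35, a leucine-zipper protein, read 6.83 and 7.28 in RPMI8226, 7.79 and 7.82 in KMS11, and 7.92 and 7.76 in U266, so KMS11 and U266 overlapped. SP110, a nuclear body protein, ran the opposite way, 6.86 and 6.84 in RPMI8226, 6.53 and 6.44 in KMS11, and 6.25 and 5.75 in U266, a difference of 0.85 ± 0.13 between the ends (limma, adjusted p = 0.00207). Of the members below the filter, IFI44 read 2.88 to 3.42 outside U266 and 5.05 and 4.28 within it, and IFI44L 2.45 to 2.70 and then 4.73 and 4.12; both are named because of these values. In a fit without the filter, 8 of the 9 members below it differed between lines, against 50.8% of the 14884 genes in that fit.

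The second question was what the mimic did. No tested interferon-induced gene was called for a change with miR-10a mimic across the 3 lines. In limma with the line as a block, 0 of 23 members and 0 of 7442 genes (0%) passed the threshold. The 9 members below the filter were not in this test. At an unadjusted p under 0.05 there were 403 genes (5.42%) and 1 member, ISG15, whose mean change was -0.27 ± 0.24 (SD, n = 3 lines; limma, adjusted p = 0.902). Without the block 0 members and 2 genes reached an unadjusted p under 0.05, in a plain paired test 1 member (BST2) and 402 genes did, and in limma with a variance trend 2 members (ISG15 and XAF1) and 408 genes did; 0 members passed adjustment in each. For 20 of the 23 tested members the 95% interval of the mean change lay within 1.5-fold in both directions. The exceptions were USP18, IFITM2 and XAF1.

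Line by line, the values did not move alike. In U266 27 of the 32 named members were lower with mimic, against 50% of named genes, and their median change was -0.29 log2 units against 0.00 for all named genes. In RPMI8226 13 of 32 were lower (47.8% of named genes) with a median of 0.05, and in KMS11 9 of 32 (48.8%) with a median of 0.04. Each line had 1 array per treatment, so these changes carry no replicate check. Among the members that passed the filter, 21 of 23 were lower in U266, against 55.7% of tested genes. Without IFIT3 and IFITM2, which passed only through the line where they were highest, 19 of 21 were lower. Lower values in all 3 lines were found for 3 of the 32 (11.7% of named genes): ISG15, SP110 and XAF1.

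**Figure D2:**
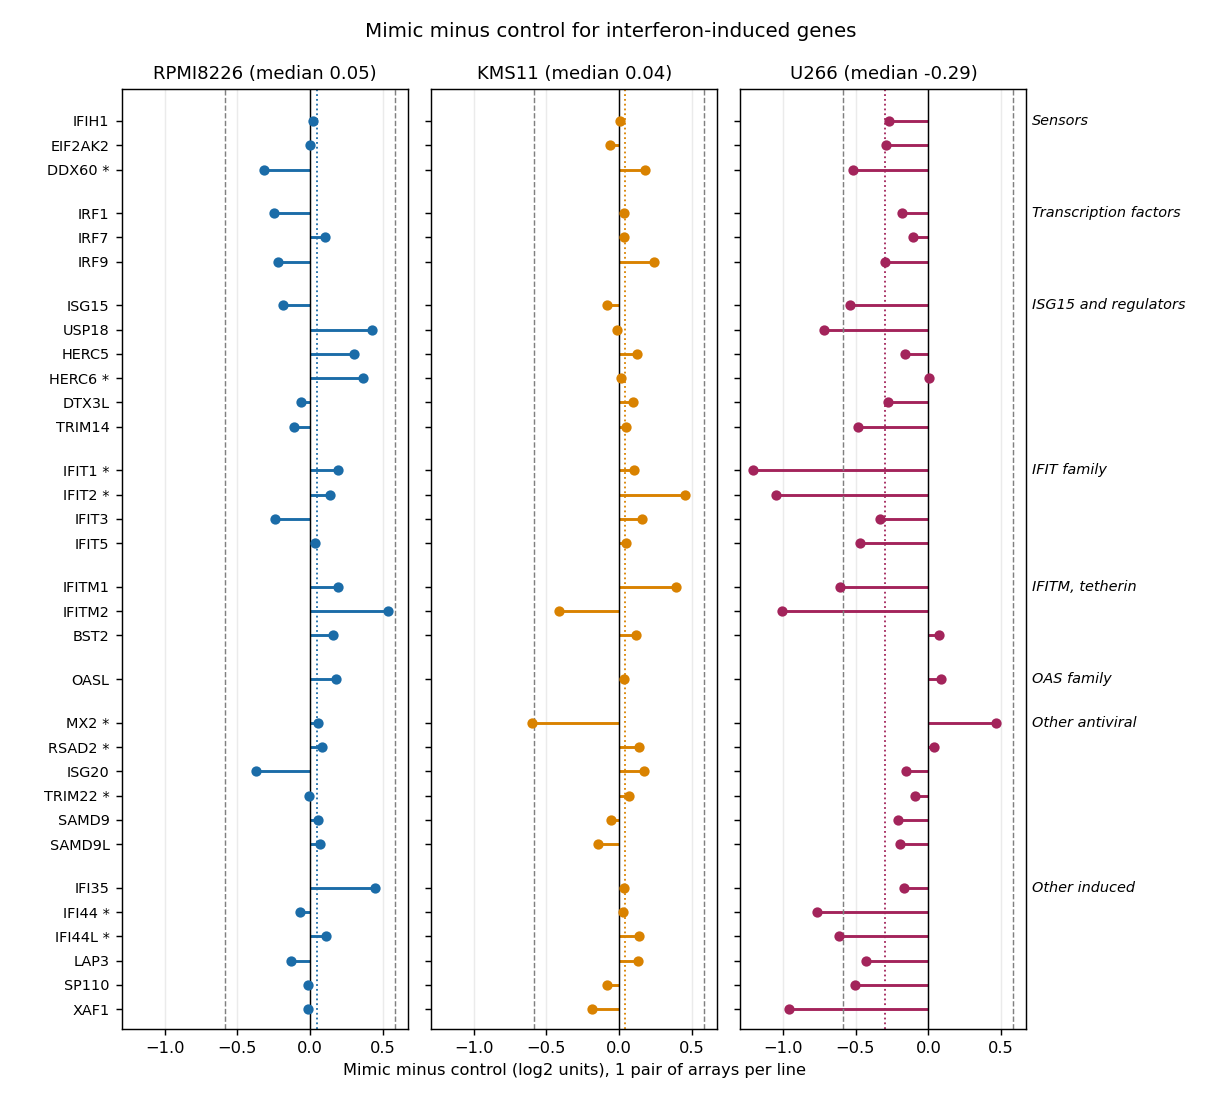
Mimic minus control in log2 units (horizontal axis) for each of the 32 named interferon-induced genes in each line, 1 pair of arrays per line; dotted lines mark the median over the genes, dashed lines a 1.5-fold change and asterisks genes below the expression filter. In U266 the points lie mostly left of 0 with a median of -0.29, against 0.05 in RPMI8226 and 0.04 in KMS11.

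At least 1.5-fold lower with mimic in U266 were 8 of the 32 members, against 0.954% of named genes. IFIT1 was 2.30-fold lower, a change of -1.20 against 0.19 in RPMI8226 and 0.10 in KMS11. IFIT2 was 2.07-fold lower (-1.05, against 0.13 and 0.45) and IFITM2 2.01-fold lower (-1.01, against 0.54 and -0.41). XAF1 was 1.94-fold lower (-0.96, against -0.02 and -0.19). The rest were IFI44 (-0.77), USP18 (-0.72), IFI44L (-0.61) and IFITM1 (-0.61). IFIT1, IFIT2, IFI44 and IFI44L are below the filter and were singled out because of these values. Outside U266 these genes read 2.01 to 3.47 log2 units, where the lowest value of any probe set was 1.16. How far they could fall there is unknown. In KMS11 1 member, MX2, was lower by as much (0.645% of named genes), and in RPMI8226 none was (1.05%). In none of the lines was a member at least 1.5-fold higher, against 0.941%, 0.759% and 1.15% of named genes in RPMI8226, KMS11 and U266.

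Sensors and transcription factors were set beside the effectors. All 6 named sensors and factors, IFIH1, EIF2AK2, DDX60, IRF1, IRF7 and IRF9, were lower in U266, against 50% of named genes. Their changes lay between -0.52 for DDX60 and -0.11 for IRF7, with a median of -0.28. Of the 26 effectors and regulators 21 were lower in U266, against the same 50% of named genes, with a median of -0.38. The 8 members past 1.5-fold were all among these effectors and regulators. The 4 IFIT genes had a median of -0.76 in U266, against 0.08 in RPMI8226 and 0.13 in KMS11. IFIT3 and IFIT5, the IFIT genes that passed the filter, had medians of -0.40, -0.10 and 0.10 in the same lines. The 5 members that were not lower in U266 were HERC6 (0.01), RSAD2 (0.04), BST2 (0.07), OASL (0.08) and MX2 (0.46). Positive changes in all 3 lines were found for 4 of the 32 members (13.4% of named genes), HERC6, BST2, OASL and RSAD2, and were 0.15, 0.11 and 0.07 for BST2 in RPMI8226, KMS11 and U266.

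The members with an ISRE core and those without it were also compared by count. In U266, 16 of the 18 with the core were lower, with a median of -0.38, and 6 of the 7 without it, with a median of -0.19, while 50% of named genes were lower. Of the 7 members with no promoter window 5 were lower in U266, with a median of -0.11. In KMS11 3 of the 18 with the core were lower, with a median of 0.11, and 3 of the 7 without it, with a median of 0.01 (48.8% of named genes). In RPMI8226 8 of the 18 and 4 of the 7 were lower, with medians of 0.01 and -0.02 (47.8%). Of the members with no window 3 were lower in KMS11 and 1 in RPMI8226. Both U266 arrays were highest for 13 of the 18 with the core, for 2 of the 7 without it (IRF9 and XAF1) and for 5 of the 7 with no window, against 19% of named genes. The 7 without the core were IRF1, IRF9, HERC6, SAMD9L, IFI35, SP110 and XAF1, and no test of this difference was made.

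**Figure D3:**
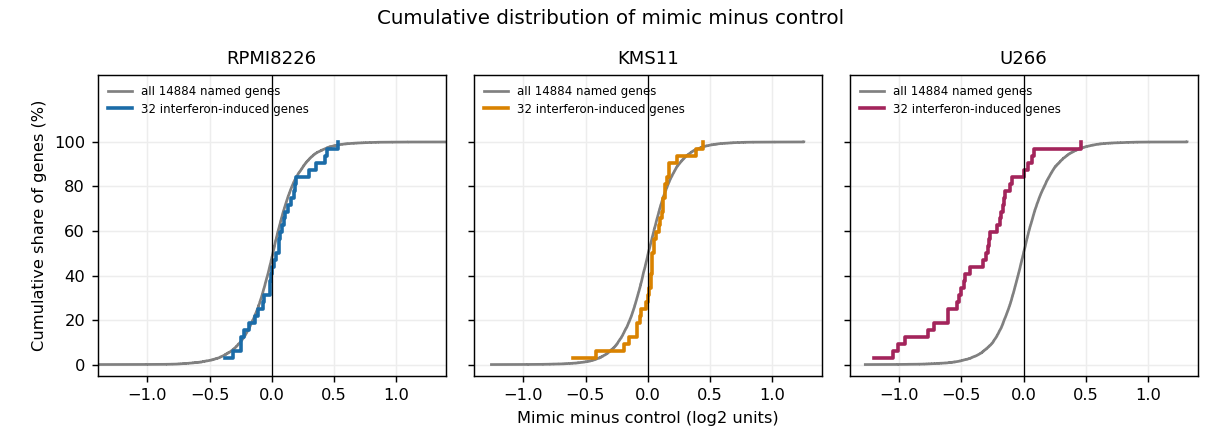
Cumulative share of genes in percent (vertical axis) against mimic minus control in log2 units (horizontal axis) in each line, for the 32 named interferon-induced genes (coloured steps) and all 14884 named genes (grey). In U266 the coloured curve lies to the left, with medians of -0.29 and 0.00. The medians are 0.05 and 0.01 in RPMI8226 and 0.04 and 0.0045 in KMS11. In KMS11 9 of the 32 genes lie below 0, against 48.8% of named genes.

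Whether the change in one line differed from that in the others was tested with an added effect of the mimic in that line alone. This left 1 residual degree of freedom. The test was chosen after an earlier report on these data had shown lower values in U266, so its U266 counts are not independent of that report. The U266 change lay below the mean of the other lines' changes for 31 of the 32 named members, against 51.6% of named genes. That count includes members below the filter, such as IFIT1 and IFIT2. No member passed the adjusted threshold in limma, nor did any of the 7442 genes (0%), and the smallest adjusted p of a member was 0.380, for IFITM1 (-0.90 ± 0.18). At an unadjusted p under 0.05, 8 of the 23 members had a lower change in U266, against 3.32% of tested genes: ISG15, USP18, TRIM14, IFIT5, IFITM1, IFITM2, SP110 and XAF1. For USP18 the difference was -0.92 ± 0.22 (limma, adjusted p = 0.443) and for XAF1 -0.85 ± 0.18 (0.402). With a variance trend in limma 4 members passed, USP18 (adjusted p = 0.0102), IFITM2 (0.0361), IFITM1 and XAF1 (0.0440 each). In that direction 0.202% of tested genes passed. The standard errors then followed the mean level: 0.224 for ISG15, 0.226 for TRIM14 and 0.226 for IFITM1, whose means were all near 6.0. These calls thus rest on a spread shared by genes of similar level, not on each gene's own. IFITM2 passed the filter only through RPMI8226, and changed by 0.54 in RPMI8226 and -0.41 in KMS11. The same test of RPMI8226 gave 2 members at an unadjusted p under 0.05 (IFITM2 and IFI35, both higher; 6.45% of tested genes) and that of KMS11 gave 2 (IRF9 and IFIT3, both higher; 4%), with 0 past adjustment in each (0% of tested genes).

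The rest of the pathway was counted from lists of 126 symbols: 59 were named on the array, and 46 passed the filter. None of the 22 interferon ligand genes was named, so the lines' own interferon transcripts were not analysed here. Of the 46 tested genes 42 differed between lines, against 82.4% of all tested genes. In U266 43 of the 59 named genes were lower with mimic (50% of all named genes), with a median of -0.12, and none was 1.5-fold lower.

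The receptor genes IFNGR1 and IFNGR2, for interferon gamma, were both highest in RPMI8226, at 5.97 and 5.99 and at 6.59 and 6.49. JAK2, a kinase of the interferon gamma receptor, was lowest there at 4.06 and 3.68, against 5.67 and 5.68 in KMS11 and 5.16 and 4.81 in U266. STAT3 was also lowest in RPMI8226, by 1.59 ± 0.12 against KMS11, and JAK1 was lowest in U266, by 1.19 ± 0.08 against RPMI8226 (limma, adjusted p = 0.000113 and 7.98e-05). Of the sensing genes upstream of interferon, AIM2, a cytosolic DNA sensor that interferon induces, read 8.07 and 7.81 in U266 against 4.71 to 5.63 elsewhere, and ZBP1 5.89 and 5.65 against 4.11 to 4.60. Both thus followed the U266-high order, whereas TLR9, the endosomal DNA sensor of B cells, was highest in RPMI8226 at 7.42 and 7.29.

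Of the other interferon regulatory factors and their partners, IRF8 was highest in RPMI8226, 2.15 ± 0.14 above U266, and IRF2 and IRF2BP2 were lowest in U266, by 1.00 ± 0.08 and 1.83 ± 0.09 against RPMI8226 (limma, adjusted p = 5.29e-05, 0.000117 and 1.79e-05). The inhibitors split: SOCS3 was highest in U266 at 7.28 and 6.90, against 4.86 to 5.91 elsewhere, and SOCS1 was lowest there at 3.78 and 3.95, against 4.80 to 5.55. In antigen processing, the peptide-trimming ERAP2 was lowest in KMS11, at 5.47 and 4.81, while TAPBP and ERAP1 ran from RPMI8226 down to U266. The widest range among other induced genes was that of CXCL10, a chemokine for T cells, at 10.61 and 10.61 in RPMI8226 and 2.15 to 2.83 in the other lines. PLSCR1, a phospholipid scramblase, read 4.61 and 4.34 in RPMI8226 against 7.85 to 8.63 elsewhere, and SLFN5 fell from 7.32 and 7.48 in RPMI8226 to 4.48 and 4.50 in U266. CXCL10 and PLSCR1 therefore ranked RPMI8226 at opposite ends. Over all 25 named genes of this list, both U266 arrays were highest for 4 (19% of all named genes) and lowest for 10 (20%). Both RPMI8226 arrays were highest for 9 (20%) and lowest for 8 (19.1%). As a list these genes thus did not share the U266-high order of the members. JAK2, ZBP1, SOCS1 and CXCL10 passed the filter only through the line where each was highest.

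**Figure D4:**
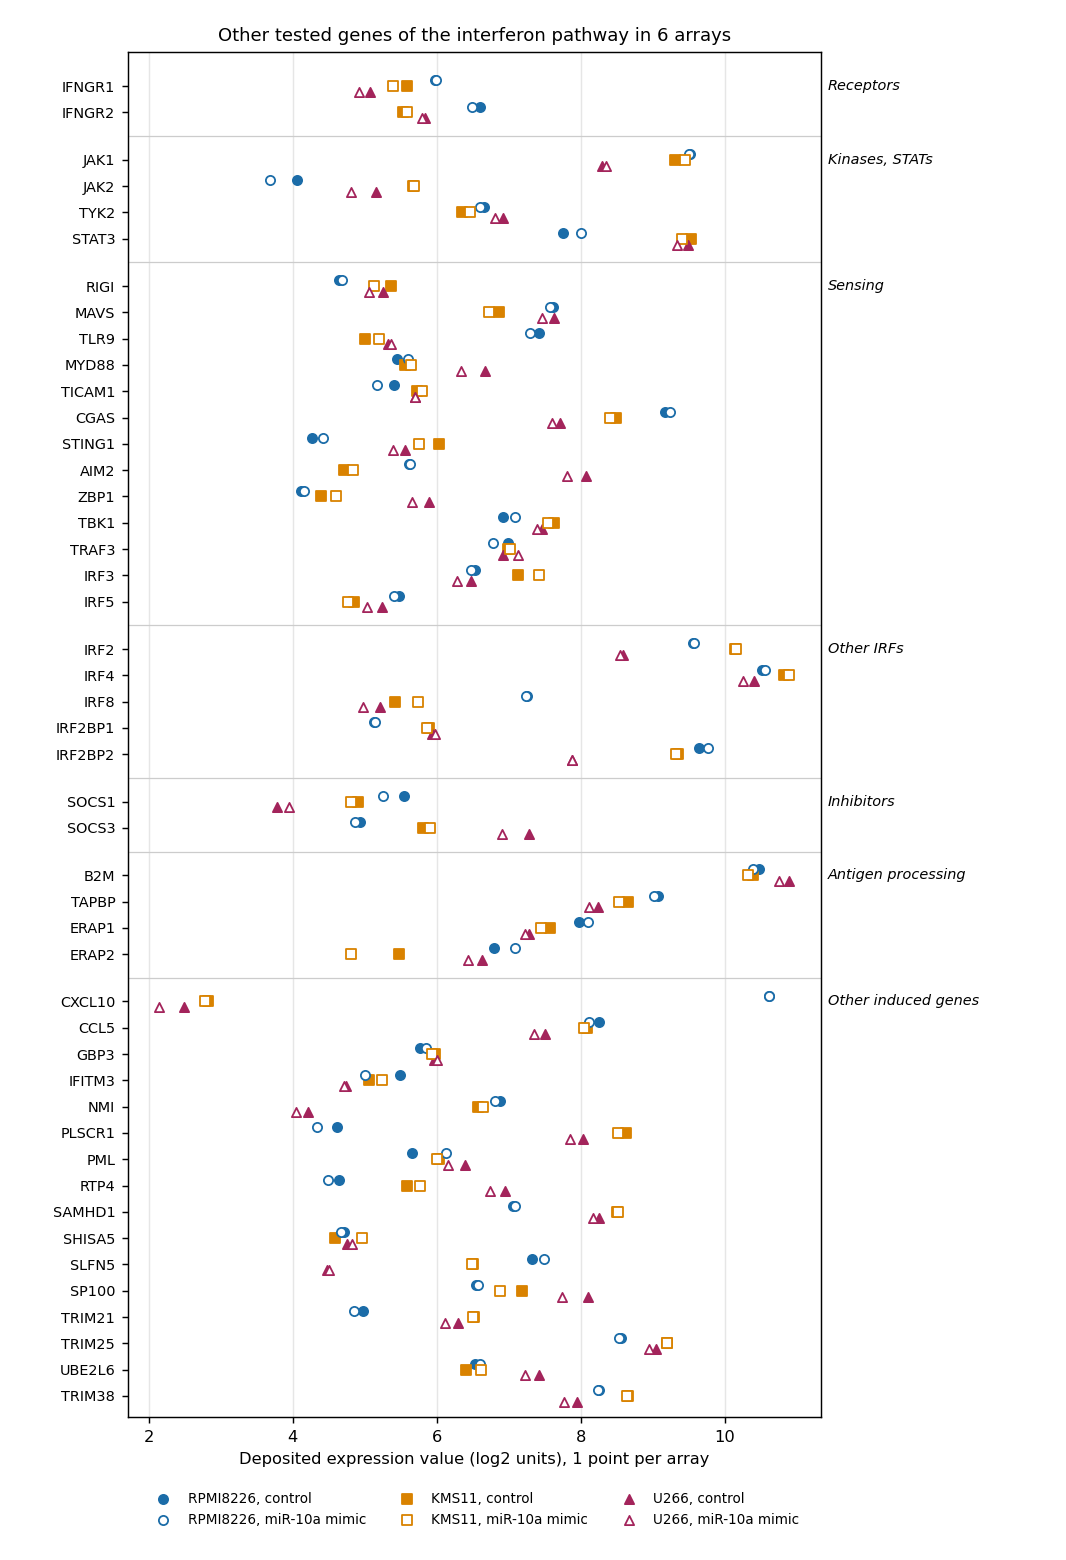
Deposited log2 expression value (horizontal axis) of the 46 other tested genes of the interferon pathway, grouped by function, with 1 point per array and symbols by line and treatment as in the key. AIM2, ZBP1 and SOCS3 have both U266 triangles on the right, and CXCL10 has both RPMI8226 circles above 10 with all other points below 3.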

How the data were processed

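The authors deposited log2 values of 53617 probe sets on 6 arrays in a single table. Affymetrix Expression Console 1.3.0 is named per the submitters' processing notes. How background correction, normalization and summarization were done, and on which build, is not given in the sources used here, and there are no detection calls, so the distance of a low value to background is unknown. The number of arrays limits the precision.

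The platform annotation gave 1 symbol to 16098 probe sets and left 37519 unnamed, and all 16098 gene identifiers matched the GRCh38.p14 gene table. Per gene the probe set with the highest mean was used. Genes at or above the median of named genes were tested in limma 3.58.1 (R 4.3.3, lmFit and eBayes without trend), two-sided, Benjamini-Hochberg adjusted over 7442 genes, with a threshold of 0.05. Treatment and cell line were both in the model, which left 2 residual degrees of freedom; the fits were tested on simulated data. The cell line labels pair the arrays, whose deviations from treatment means correlated at 0.967 to 0.970 across genes.

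The members, their roles, the pathway lists and the markers were chosen with earlier results of these data known. An earlier report on these data had shown lower values in U266. The test of each line's own change was set up with that known. Values in every array are given for tested members that differed between lines or changed at least 1.5-fold in a line, and for members below the filter that are said to be chosen by value. At most 3 genes per pathway list are named, by the widest range of line means. Alternatives were no filter, the upper 25% of genes, centring, quantile normalization, the mean of probe sets, all probe sets, a variance trend, no block, a plain paired test, and each line left out.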

Additional observations from a re-analysis of the deposited data

Results flagged for a closer look

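The median change with mimic over the 32 named interferon-induced genes was -0.29 log2 units in U266 and close to 0 in RPMI8226 (0.05) and KMS11 (0.04). Over all named genes the medians were 0.00 in U266, 0.01 in RPMI8226 and 0.0045 in KMS11. This difference between lines was flagged, but lower values in U266 were already known from an earlier report on these data. The difference was not tested as a median, since each line has 1 array per treatment.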

How the results depend on the processing

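The counts of called or lower members fell where fewer genes entered. With only the upper 25% of genes, 10 members were tested: 9 differed between lines, 8 between KMS11 and RPMI8226, 9 between U266 and RPMI8226 and 6 between U266 and KMS11. In that subset 2 members were lower with mimic in RPMI8226, 4 in KMS11 and 9 in U266. Both U266 arrays were highest for 6 and both RPMI8226 arrays lowest for 7. For these counts, and for those with a line left out below, the share over all genes of the same fit is not given here. They are therefore not read as a result about the members, since in the main fit 82.4% of tested genes differed between lines. Counting tested genes alone, 13 of 23 members had both U266 arrays highest (25.6% of tested genes). The 13 include IFIT3, which passed the filter only through U266. The test of a change particular to U266 called 0 members, but 4 with a variance trend and 1 (USP18) in the upper 25% of genes, where 0.269% of genes passed. In the upper 25% all 10 tested members had the same standard error, 0.167, against 0.22 for USP18 in the main fit. No member's own spread thus entered that call, and with the trend the standard error followed the mean level. The U266 median stayed between -0.32 and -0.24 under centring, quantile normalization, the mean of probe sets and both subsets. Without the replicate block, which pairs arrays by line, the mimic called 0 members, as it did with each line left out in turn (0 to 0). U266 and KMS11 differed for 15 members without RPMI8226, U266 and RPMI8226 for 21 without KMS11, and KMS11 and RPMI8226 for 18 without U266, against 14, 21 and 14. The test of a line's own change could not be fitted with a line left out. Over 661 combinations of a tested member, a contrast and an alternative, 632 kept their side of the threshold, 17 newly passed, 12 no longer passed and 0 changed sign.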
